A study of Caenorhabditis elegans with 2 samples.

Results

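The genes described here are 10 genes of the autophagy pathway of Caenorhabditis elegans, out of 19973 nuclear protein-coding genes: unc-51, epg-7, bec-1, atg-9, atg-18, atg-7, lgg-1, lgg-2, sqst-1 and hlh-30. They were taken from a fixed list of names, and for each one every summit of a JUN-1 peak from 5 kb upstream of the gene start to the gene end was collected. All 10 names were found in the Ensembl annotation, 5 of them on chromosome IV, 3 on V, 1 on II and 1 on X.

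JUN-1, the worm member of the Jun family of bZIP transcription factors, had been mapped by chromatin immunoprecipitation and sequencing (ChIP-seq) in whole larvae of the first stage (L1). The single group consisted of 2 biological replicates of strain OP234, mixed in sex, which carries unc-119(ed3) III and the transgene wgIs234 for an eGFP-tagged JUN-1. The labels leave the age open, and they do not name the promoter of the transgene. Whole animals were used, so binding in few cells and weaker binding in many cells cannot be told apart.

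Autophagy encloses cytoplasm, protein aggregates or organelles in a double membrane, the autophagosome, which then fuses with lysosomes. The kinase UNC-51 and scaffold proteins start the process, the lipid kinase complex that holds BEC-1 marks the membrane, ATG-9 and ATG-18 act in its growth, and ATG-7 activates the ubiquitin-like proteins LGG-1 and LGG-2, which become attached to it. In worm embryos the process clears protein aggregates, and in larvae and adults it takes part in the response to starvation and stress.

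JUN-1 peaks that passed a threshold on the irreproducible discovery rate (IDR), a measure of how well peak ranks repeat between replicates, lay in the windows of 7 of the 10 genes, namely lgg-1, lgg-2, epg-7, unc-51, atg-7, sqst-1 and hlh-30. The same was true of 18.6% of all protein-coding genes. There were 12 such summits, of which 8 lay between genes and 4 in introns, and none lay in an exon of a coding gene. The same split over all IDR-thresholded summits is not given here, so it only describes where these 12 lay. In the promoter window, from 1000 bp upstream to 200 bp downstream of the gene start, 3 genes had an IDR-thresholded summit, which were lgg-1, lgg-2 and epg-7, against 8.42% of all protein-coding genes. The names were chosen with earlier results of these data known, so the counts describe these genes and were not tested.

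**Figure D1:**
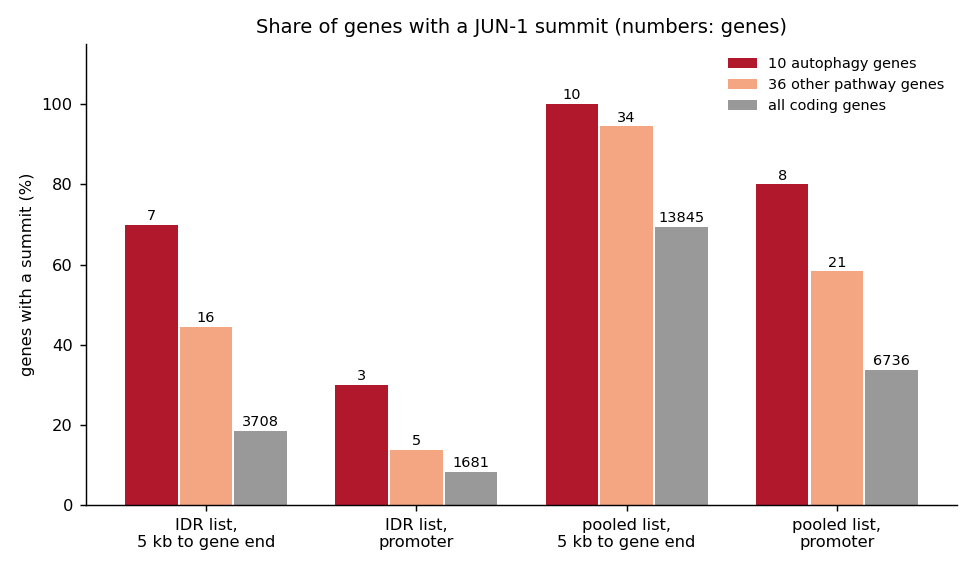
Share of genes with a JUN-1 summit (y axis, percent) in the IDR-thresholded and pooled lists, in the window from 5 kb upstream to the gene end or in the promoter window (x axis), with the number of genes over each bar. Dark red bars are the 10 autophagy genes, light bars 36 other genes of the pathway and grey bars all 19973 protein-coding genes; 7 of the 10 have an IDR-thresholded summit in the wider window and 3 in the promoter.

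The DNA under 9 of these summits is shown because they are the strongest peaks of the 7 genes, together with the second peaks of lgg-1 and lgg-2. Each sequence is 150 bp centred on the summit, read 5′ to 3′ on the strand of the gene from the RefSeq copy of WBcel235, the assembly that ce11 names. All coordinates are on ce11 and counted from 1. Capitals mark matches on either strand to AP-1, CRE, E-box, CTGCGTCTC, GAGAGAGA and CTGCGT, all of which are spelled out after the sequences.
lgg-1, 875 bp upstream (chrII:6348519-6348668, strand -): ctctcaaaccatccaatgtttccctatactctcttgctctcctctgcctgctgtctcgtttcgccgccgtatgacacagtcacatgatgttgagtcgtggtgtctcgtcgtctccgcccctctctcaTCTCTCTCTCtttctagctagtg
lgg-1, 203 bp upstream (chrII:6347847-6347996, strand -): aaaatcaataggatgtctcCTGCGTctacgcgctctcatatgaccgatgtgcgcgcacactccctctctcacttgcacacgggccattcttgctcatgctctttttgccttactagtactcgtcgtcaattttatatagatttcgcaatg
lgg-2, 305 bp upstream (chrIV:10936133-10936282, strand -): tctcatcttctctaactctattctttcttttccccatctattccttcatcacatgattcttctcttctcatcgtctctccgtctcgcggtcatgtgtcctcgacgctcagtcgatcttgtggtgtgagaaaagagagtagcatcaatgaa
lgg-2, 392 bp downstream (chrIV:10935436-10935585, strand -): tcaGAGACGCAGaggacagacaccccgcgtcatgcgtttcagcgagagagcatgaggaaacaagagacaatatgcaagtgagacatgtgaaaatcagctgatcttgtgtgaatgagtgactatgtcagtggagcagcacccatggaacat
epg-7, 156 bp upstream (chrX:7334483-7334632, strand +): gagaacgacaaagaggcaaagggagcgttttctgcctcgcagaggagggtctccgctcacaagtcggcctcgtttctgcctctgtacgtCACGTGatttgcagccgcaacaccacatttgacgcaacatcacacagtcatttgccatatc
unc-51, 1445 bp upstream (chrV:20005855-20006004, strand -): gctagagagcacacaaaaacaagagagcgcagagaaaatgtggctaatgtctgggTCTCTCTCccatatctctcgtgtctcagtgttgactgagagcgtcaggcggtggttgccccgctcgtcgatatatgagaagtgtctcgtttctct
atg-7, 1979 bp upstream (chrIV:11082959-11083108, strand -): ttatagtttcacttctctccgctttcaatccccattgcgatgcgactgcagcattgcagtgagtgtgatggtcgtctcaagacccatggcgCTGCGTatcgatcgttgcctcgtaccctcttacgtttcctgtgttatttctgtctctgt
sqst-1, 1648 bp upstream (chrIV:12032559-12032708, strand +): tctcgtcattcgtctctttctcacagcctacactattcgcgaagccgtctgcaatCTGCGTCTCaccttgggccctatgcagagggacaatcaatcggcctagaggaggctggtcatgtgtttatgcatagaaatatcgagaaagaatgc
hlh-30, 10634 bp downstream (chrIV:4024242-4024391, strand -): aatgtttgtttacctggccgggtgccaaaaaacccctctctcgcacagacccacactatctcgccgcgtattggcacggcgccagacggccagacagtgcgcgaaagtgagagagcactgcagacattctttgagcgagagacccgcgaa

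The words searched in the 200 bp around each of the 12 summits were the AP-1 element (TGACTCA or TGAGTCA), the CRE element TGACGTCA, the E-box CACGTG, CTGCGTCTC and GAGAGAGA, each on both strands. CACGTG is the core that factors of the HLH-30 type bind. The AP-1 element was in none of the 12 windows, and 4.90% of all 2305 IDR-thresholded summit windows held it. The CRE element was in none either, against 1.52%. With 12 windows, such an absence says only that these letters are not in them. The E-box was in 1 window, that of epg-7, where its centre lay 17 bp from the summit (7.90% of all windows). CTGCGTCTC was in 3 windows, at the intronic and the most distal summit of lgg-2 and at sqst-1, where it lay 16 bp from the summit (15.3% of all windows). GAGAGAGA was in 3 windows, at the distal summit of lgg-1, at unc-51 and at 1 summit of hlh-30 (13.4% of all windows). In all, 7 of the 12 windows held at least 1 of the elements, against 35.1% of all 2305 windows. The elements were chosen with earlier results of these data known, so these counts describe the windows and were not tested. A match describes the sequence and does not mark a bound site.

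Shorter words, picked after these sequences and earlier results had been seen, were found in the remaining windows. All 12 thus held an element or a shorter word, and 60.2% of all 2305 windows did. As the words were picked with these windows in view, no excess over all windows can be read from the counts of these words. CTGCGT, the start of CTGCGTCTC, was in 5 of the 12 windows (26.2% of all IDR-thresholded windows), among them the proximal summit of lgg-1 and the summit upstream of atg-7. GAGAGA, which is part of GAGAGAGA, was in 10 of the 12 (42.7% of all windows), and is not in capitals above. The 2 windows without it were that of sqst-1 and the most distal one of lgg-2, and both held CTGCGTCTC. The median GC content of the 12 windows was 49.8%, and that of all 2305 was 43.5%. In the promoter windows of the 10 genes, wherever JUN-1 peaks lay, the E-box was at sqst-1, atg-9 and epg-7 (18.4% of all coding promoters held it) and GAGAGAGA at lgg-1, bec-1, atg-7 and epg-7 (8.70%). The AP-1 element (11.7%), the CRE element (5.89%) and CTGCGTCTC (6.81%) were each in the promoter window of 1 of the 10, hlh-30.

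Each peak is described by the signal that the authors deposited for it and by its rank in a list, where rank 1 is the strongest. Signals are used within a list only, since their scaling is not given. The IDR-thresholded list held 2305 peaks, and all of them were the 2305 strongest of the 19646 pooled peaks, with the same signals. Its ranks are therefore the pooled ranks. Replicate 1 contributed 28101 peaks and replicate 2 exactly 30000, which in both cases include background. Without reads behind the peaks the depth is unknown, and no counting error can be given.

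LGG-1 and LGG-2 are the worm proteins of the Atg8 family, which coat the autophagosome and bind cargo receptors, and both genes had more than 1 IDR-thresholded peak. The strongest peak of lgg-2 (IV:10934196-10935903, minus strand) had its summit 305 bp upstream of the gene start (peak IV:10936036-10936379), with a signal of 148 and rank 111 in the IDR-thresholded list. In replicate 1 its signal was 79.5 (rank 136), and in replicate 2 it was 70.8 (rank 89). The summits of the 2 replicates were 13 bp apart. A peak of signal 96.1 (rank 293) lay 392 bp downstream of the start, in an intron of lgg-2, with 51.8 in replicate 1 (rank 351) and 43.9 in replicate 2 (rank 268). These summits were 697 bp apart and lay on either side of the gene start. A weaker peak, 1145 bp upstream (signal 32.0, rank 1947), was nearer to the start of the divergent gene fic-1, at 406 bp, and lay in the promoter window of that gene, which codes for an enzyme that modifies proteins with AMP. In replicate 1 its signal was 13.96 (rank 3113), and in replicate 2 it was 17.6 (rank 1356).

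Both IDR-thresholded peaks of lgg-1 (II:6346960-6347719, minus strand) lay in its promoter window. The stronger had its summit 875 bp upstream (II:6348422-6348765), with a signal of 127 and rank 159. Its signal was 76.6 in replicate 1 (rank 149) and 49.99 in replicate 2 (rank 195). The weaker was 203 bp upstream (II:6347750-6348093), with a signal of 57.0 (rank 761), 32.6 in replicate 1 (rank 805) and 21.5 in replicate 2 (rank 990). The summit farther from the gene was thus the higher of the pair in both replicates, and the summits were 672 bp apart. The nearest coding gene upstream, C32D5.10, was 1488 bp away, so both summits lay between it and lgg-1. The proximal summit was placed within 1 bp in the 2 replicates.

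EPG-7 is a scaffold protein that acts with the cargo receptor SQST-1 in the degradation of protein aggregates, and UNC-51 is the kinase that starts autophagosome formation. The single IDR-thresholded peak of epg-7 (X:7334714-7340268, plus strand) had its summit 156 bp upstream (X:7334386-7334729), with a signal of 148 and rank 112, next to lgg-2 in the list. In replicate 1 its signal was 68.2 (rank 192) and in replicate 2 it was 82.1 (rank 58), the strongest of all 12 peaks there. The next strongest of the 4 pooled summits in its window reached rank 11034, with a signal of 10.7. At unc-51 (V:19995986-20004485, minus strand) the peak lay 1445 bp upstream (V:20005758-20006101), outside the promoter window but nearer to the start of unc-51 than to any other gene start. Its signal was 53.5 (rank 848), with 31.8 in replicate 1 (rank 845) and 20.2 in replicate 2 (rank 1098).

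**Figure D2:**
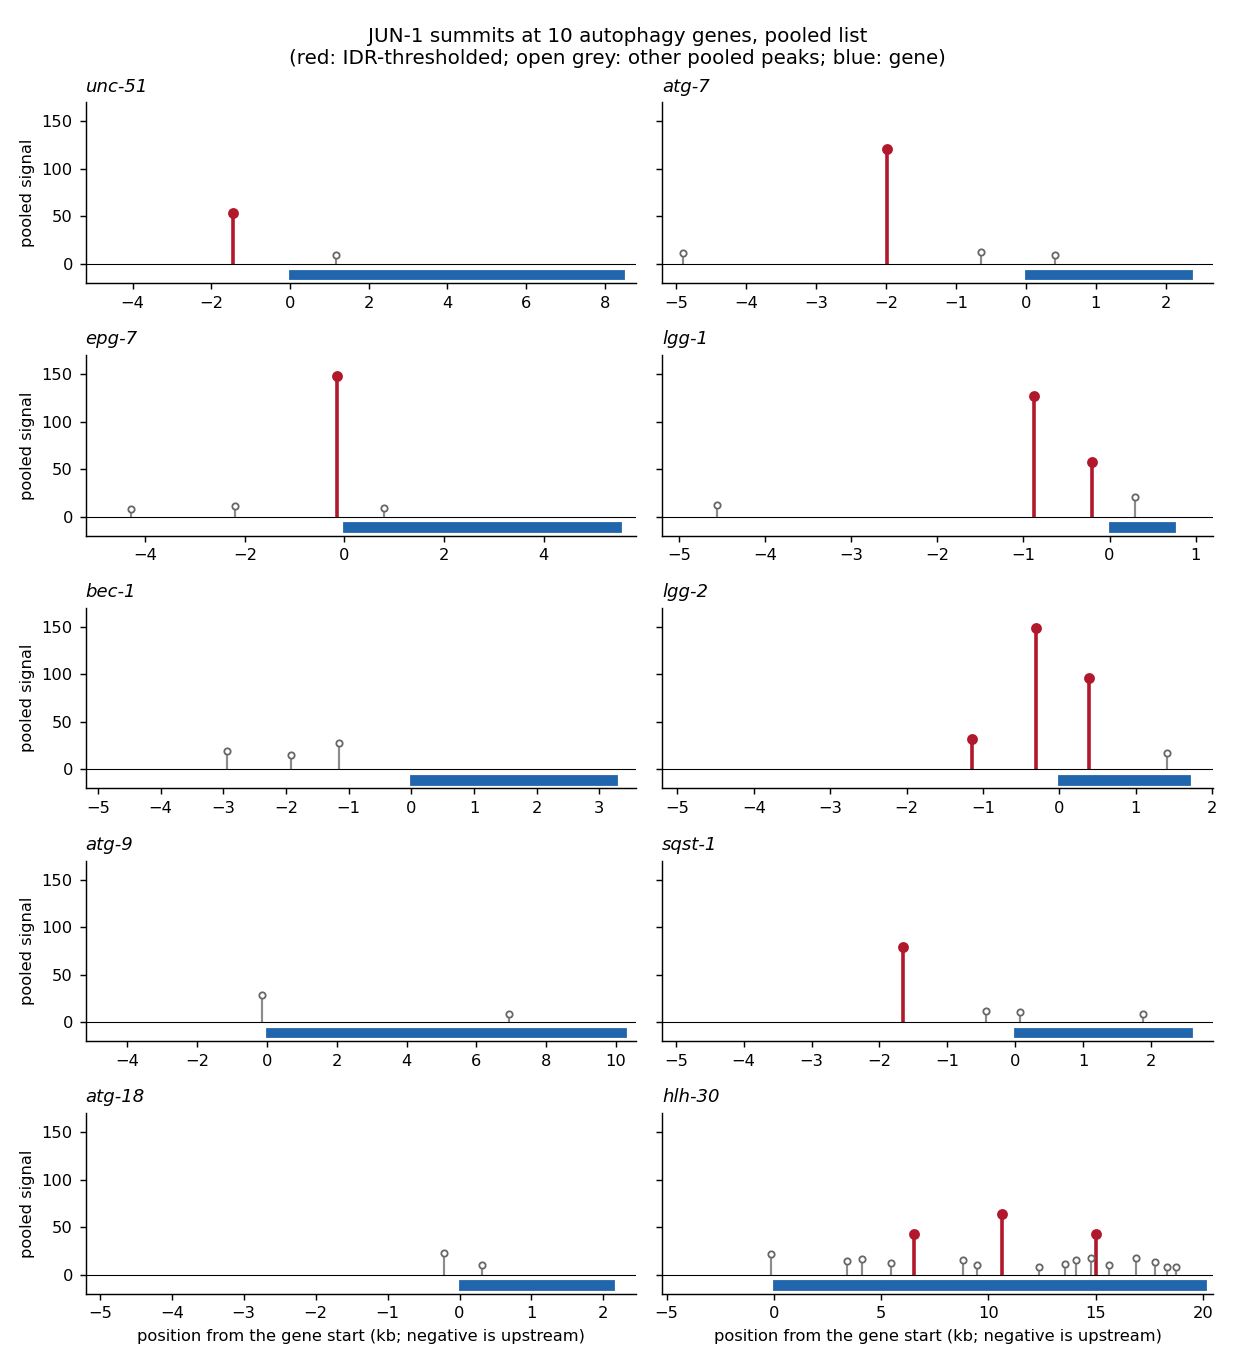
Signal of every pooled JUN-1 summit (y axis, signal in the pooled list) against its position from the gene start in kb (x axis, negative is upstream) at the 10 genes, whose bodies are blue bars drawn from left to right in the direction of transcription. Red summits are IDR-thresholded; lgg-1, lgg-2 and epg-7 have their strongest within 1000 bp of the start, hlh-30 has 3 inside the gene, and bec-1, atg-9 and atg-18 have none.

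At atg-7 and sqst-1 the peaks in the window lay nearer to other genes. ATG-7 is the enzyme that activates the Atg8-type proteins. The strong peak in its window (IV:11082862-11083205, signal 121, rank 177) was 1979 bp upstream of atg-7 (IV:11078682-11081055, minus strand), with 62.0 in replicate 1 (rank 241) and 69.3 in replicate 2 (rank 94). Between it and atg-7 lay let-70, which codes for a ubiquitin-conjugating enzyme and ends 31 bp from the start of atg-7. The summit was in the promoter windows of let-70, 781 bp from its start, and of the divergent klc-1, a kinesin light chain gene, 701 bp from its start, and it was 113 bp from the start of the snoRNA gene M7.15. The promoter window of atg-7 itself held 1 pooled summit, 634 bp upstream, with a signal of 12.8 (rank 7873), 7.90 in replicate 1 (rank 8091) and 3.34 in replicate 2 (rank 27533).

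SQST-1 is the worm p62 protein, a receptor that carries ubiquitinated cargo to LGG-1. The peak in its window (IV:12032462-12032805, signal 79.3, rank 439) lay 1648 bp upstream of sqst-1 (IV:12034282-12036891, plus strand). The signal was 35.6 in replicate 1 (rank 690) and 47.3 in replicate 2 (rank 219). The nearest gene start was that of mrpl-51, a gene for a mitochondrial ribosomal protein, at 1310 bp. That gene runs towards sqst-1 and the summit lay 480 bp past its end, in the sequence between the genes. The promoter window of sqst-1 held 2 pooled summits, the stronger of signal 12.02 (rank 8865).

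HLH-30, the worm relative of mammalian TFEB, is a bHLH factor that activates autophagy and lysosomal genes, and its gene (IV:4014793-4034951, minus strand) has 13 annotated transcripts over 20159 bp. All 3 of its IDR-thresholded peaks lay in introns. The strongest (IV:4024145-4024488, signal 64.5, rank 625) was 10634 bp downstream of the gene start, with 30.2 in replicate 1 (rank 919) and 33.5 in replicate 2 (rank 452). A peak 6522 bp downstream (IV:4028257-4028600, signal 42.5, rank 1258) was 302 bp upstream of the start of a shorter transcript, W02C12.3b.1. It had 29.3 in replicate 1 (rank 981) and 13.02 in replicate 2 (rank 2242). The third peak, 15004 bp downstream (IV:4019775-4020118, signal 43.3, rank 1218), was 903 bp upstream of the start of the transcript W02C12.3f.1 and 43 bp from the start of the non-coding RNA gene W02C12.4, and the nearest start of a coding gene, W02C12.2, was 11974 bp away. Its signals were 22.5 in replicate 1 (rank 1541) and 22.7 in replicate 2 (rank 919). A second replicate 1 peak, with its summit 14807 bp downstream, overlapped it too, with a signal of 14.8 (rank 2857). The pooled list also had a second overlapping peak, 14801 bp downstream, of signal 17.5 (rank 4647). The replicate 2 summit, 14949 bp downstream, lay between the 2 replicate 1 summits. The promoter window at the 5′ end of hlh-30 had 1 pooled summit, 143 bp upstream, of signal 21.99 (rank 3302), with 13.1 in replicate 1 (rank 3437) and 10.7 in replicate 2 (rank 3124).

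The other 3 genes had no IDR-thresholded summit, and the signal at the end of that list was 28.4. The strongest pooled summits of atg-9 and bec-1 stood close behind it, and that of atg-18 farther down. ATG-9 is the transmembrane protein of autophagosome growth. At its gene (V:349385-359658, plus strand) a summit 145 bp upstream (V:349068-349411) had a signal of 28.3 and rank 2315 in the pooled list, 10 places after the last IDR-thresholded peak. It had 16.3 in replicate 1 (rank 2449) and 8.54 in replicate 2 (rank 4771). BEC-1 is the worm Beclin, and the strongest summit at its gene (IV:5661141-5664425, minus strand), 1148 bp upstream (IV:5665401-5665744), had a signal of 27.6 (rank 2395). Here replicate 2 ranked the peak higher, with 15.9 (rank 1614) against 10.3 (rank 4971) in replicate 1. The summit of bec-1 was 635 bp from the start of the snoRNA gene T19E7.29. ATG-18 binds the lipid made by the BEC-1 complex, and its gene (V:8629174-8631327, minus strand) had a summit 213 bp upstream (V:8631368-8631711) of signal 23.3 (rank 3054), with 10.2 in replicate 1 (rank 5058) and 12.4 in replicate 2 (rank 2435).

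The peaks of atg-9 and bec-1 carried the same −log10 q-value, 3.73, as every IDR-thresholded peak, and 361 pooled peaks outside that list did so. With those peaks added, 9 of the 10 genes had a summit in the wider window (20.9% of all protein-coding genes) and 4 in the promoter window (9.51% of all). The gene without one in the wider window was atg-18, whose peak had a −log10 q-value of 2.46.

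**Figure D3:**
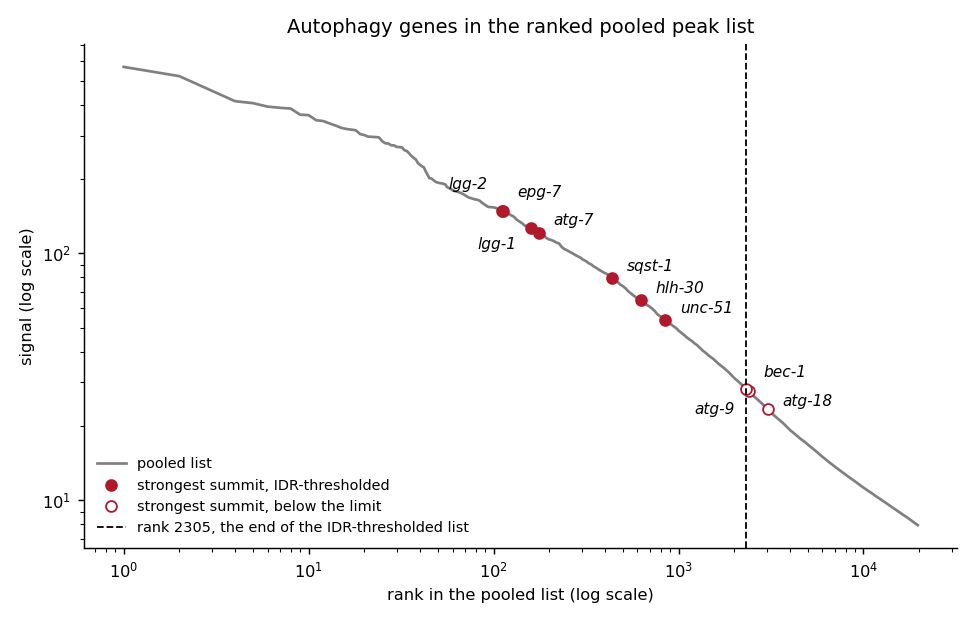
Signal (y axis, log scale) against rank (x axis, log scale) of the peaks of the pooled list as a grey line, with the strongest summit of each of the 10 genes. Filled points are IDR-thresholded peaks and open points lie after rank 2305, marked by the dashed line; lgg-2, epg-7, lgg-1 and atg-7 stand between ranks 111 and 177, and atg-9 is 10 places after the line.

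The same 4 peaks were strongest in both replicates, in a different order. In replicate 1 the order of the 12 peaks began with lgg-2 (79.5), the distal peak of lgg-1 (76.6), epg-7 (68.2) and the peak upstream of atg-7 (62.0). In replicate 2 it began with epg-7 (82.1), lgg-2 (70.8), the peak upstream of atg-7 (69.3) and the distal peak of lgg-1 (49.99). These 4 led the other 8 in both. Of the 12 peaks, 11 were matched by a peak among the 2305 strongest of replicate 1 and all 12 by one among the 2305 strongest of replicate 2. Of all 2305 IDR-thresholded peaks, 87.1% were so matched in replicate 1 and 81.6% in replicate 2. These shares do not compare peaks of like strength, since 9 of the 12 were among the stronger 1153 of that list. The exception among the 12, in replicate 1, was the weakest peak of lgg-2. The distance between the replicate summits of a peak ran from 1 to 94 bp, with a median of 45.5 bp. Both replicates were called against 1 shared control, whose part in this agreement was not tested.

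**Figure D4:**
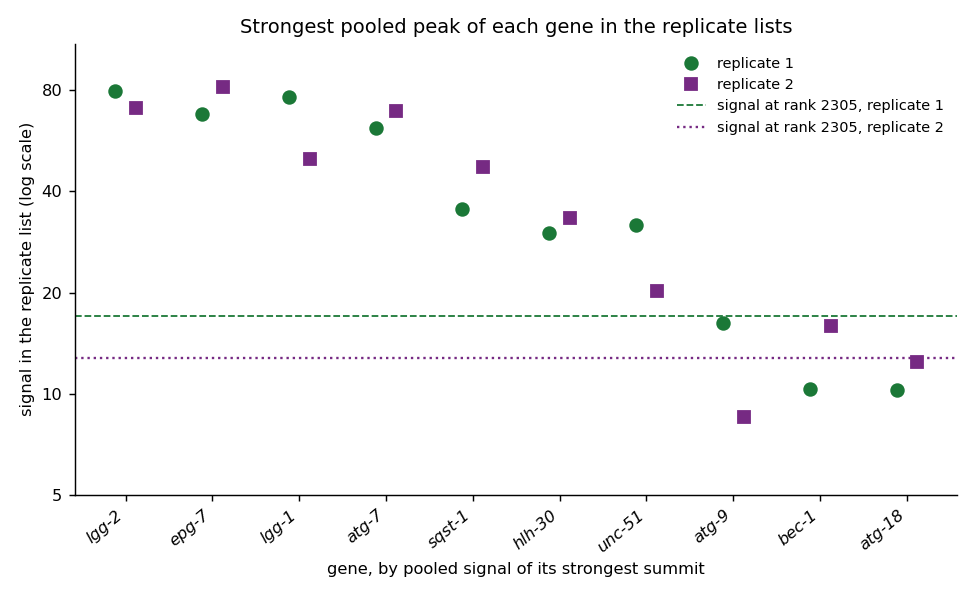
Signal of the strongest pooled peak of each gene in the list of replicate 1 (circles) and replicate 2 (squares), on a log scale (y axis), with the genes in order of pooled signal (x axis). The dashed and dotted lines give the signal at rank 2305 of each replicate list (17.02 and 12.8); 7 genes lie above both lines, and bec-1 lies above its line in replicate 2 only.

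Weaker peaks were common at these genes, as at most genes. The windows held 47 pooled summits, 59 of replicate 1 and 58 of replicate 2. All 10 genes had a summit in each of these lists, as did 69.3% of all protein-coding genes in the pooled list, 80.3% in replicate 1 and 84.5% in replicate 2. In the promoter window, 8 of the 10 had a pooled summit (33.7% of all genes), and 9 had one in replicate 1 (40.7%) and 9 in replicate 2 (41.1%). The gene without one in both replicates was bec-1. The 35 pooled summits outside the IDR-thresholded list had signals of 7.96 to 28.3, with a median of 12.1. hlh-30, with the longest window (25159 bp), had the most summits, 18 in the pooled list, 21 in replicate 1 and 20 in replicate 2. The others had 2 to 4 in the pooled list, 2 to 5 in replicate 1 and 2 to 6 in replicate 2.

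Per length, the windows held 1.12 IDR-thresholded summits per 10 kb, and the merged windows of all protein-coding genes held 0.238. In the pooled list these densities were 4.38 and 2.00. For 4 of the 12 IDR-thresholded summits the nearest coding start was that of a gene outside the 10. The genes were chosen with earlier results of these data known, so the densities describe them and were not tested. Of the replicate 1 summits in the windows that ranked after 2305, 26 of 48 (54.2%) overlapped a peak of replicate 2, and 41.9% of such peaks in the whole list did. For replicate 2 these were 21 of 43 (48.8%) and 39.4%. These shares were matched neither for strength nor for the density of summits. The windows held 5.49 replicate 1 and 5.40 replicate 2 summits per 10 kb, against 2.85 and 3.05 over all coding windows. Of the summits of any rank, hlh-30 alone held 21 of 59 in replicate 1 and 20 of 58 in replicate 2. At these genes, 54.2% of the weaker summits of replicate 1 and 48.8% of those of replicate 2 were thus found in both replicates. The rest were found in a single one.

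Other genes with a promoter peak of like strength were sought for lgg-2, epg-7 and lgg-1 among 1674 genes with values in both replicates, by the distance between the log2 signals of the 2 samples. Nearest to lgg-2 were eef-1A.1, a translation elongation factor gene, and rfc-4, a replication factor gene, which share 1 peak (80.04 in replicate 1 and 71.7 in replicate 2, distance 0.022). Nearest to epg-7 was bet-2, a bromodomain gene (69.3 and 81.7, distance 0.025), followed by htz-1, the gene of the histone variant H2A.Z (69.8 and 79.6, distance 0.055). Nearest to lgg-1 were F48A11.4 (78.1 and 50.2, distance 0.030) and F59C6.18 (73.2 and 50.4, distance 0.066). By their strongest promoter peak, lgg-2, epg-7 and lgg-1 ranked 101, 102 and 141 among the 1681 genes with an IDR-thresholded promoter peak.

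The 36 other genes of the pathway range from the UNC-51 complex to fusion with the lysosome, and include regulators such as pha-4. Of these 36, 5 had an IDR-thresholded promoter summit (8.42% of all protein-coding genes did) and 16 had one in the wider window (18.6% of all). The strongest was at rab-7, a GTPase gene of late endosomes, whose signal was 112 (71.2 and 40.2 in replicates 1 and 2), but this summit was nearer to the start of W03C9.5 (179 bp) and also lay in the promoter window of mex-1. The next was allo-1, the gene of a receptor for paternal mitochondria, 255 bp upstream, with 86.8 (50.3 in replicate 1 and 37.3 in replicate 2). Then came epg-8, a gene of the BEC-1 complex, 242 bp upstream, with 43.9 (25.4 and 17.7 in replicates 1 and 2). Close to the end of the list stood atg-16.1, a gene of Atg8 conjugation, with 28.7 (20.7 and 8.57), and pha-4, the forkhead gene of the foregut, with 28.5 (12.4 and 12.8). The other 31 genes, which include atg-13, atg-3, atg-5 and vps-34, had none in their promoter window.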

How the data were processed

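ChIP-seq peak lists on the ce11 assembly were analysed for 2 biological replicates of 1 group, numbered as in the labels. Per the file headers in the deposited provenance notes, the authors made a list of peaks and background for each replicate, another on both replicates together, all against 1 control alignment, and an IDR-thresholded list derived from these. The sources used here do not name the caller, the IDR cutoff, the scaling of the signal or the read depth. Signals were used as deposited by the authors, and the deposited −log10 q-value was used only to compare peaks at the limit of the IDR-thresholded list. The ce10 lists were not used here.

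A summit (peak start plus offset) was assigned to every gene of Ensembl release 115 whose window held it, and a replicate peak was matched to a pooled one by an overlap of at least 1 bp, taking the strongest. Python 3.11.15, pandas 2.3.3 and NumPy 2.4.6 were used. The assignment of summits to windows and the distances were tested on simulated data, with summits placed at known distances of real genes.

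The 10 genes, the list of 36 others and the elements were chosen with earlier results of these data known. Named genes are the 10 genes, the genes nearest their IDR-thresholded summits or with promoter windows that hold them, the other pathway genes with an IDR-thresholded promoter peak, and the 2 genes most like lgg-2, epg-7 and lgg-1; genes without a peak were added after their values were seen. One group allows no test between conditions, and none was made. Alternatives changed the windows, the peak limit, the overlap rule, the assignment and the replicate used.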

Additional observations from a re-analysis of the deposited data

How the results depend on the processing

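The number of genes with an IDR-thresholded summit in the wider window was 7. It was 5 when each summit was given only to the nearest coding gene start, which took away atg-7 and sqst-1, 6 when the upstream part ended at the next coding gene, which took away atg-7, and 9 with all pooled peaks of the largest −log10 q-value, an alternative chosen after seeing the data. With the strongest 2305 peaks of a single replicate it was 7 to 8, the higher value without replicate 1, where bec-1 was added. The 12 summits became 11 to 15 in those lists and 8 with the nearest start. The 3 genes with a promoter summit became 6 with a window from 2000 bp upstream, which added unc-51, atg-7 and sqst-1, and stayed 3 in each single replicate, by lgg-1, lgg-2 and epg-7. The 5 other pathway genes with a promoter summit became 8 with that window, 2 (rab-7 and allo-1) among the stronger 1153 peaks, and 5 to 6 in single replicates. The genes were not the same in both replicates. Of the 5, epg-8, rab-7 and allo-1 were in each, atg-16.1 in replicate 1 only and pha-4 in replicate 2 only. Genes outside the 5 took the other places, atg-3 among them in replicate 2. The number of summit windows with an element was 7 (35.1% of all 2305 windows), and 4 in windows of 100 bp (24.5% of all). The remaining alternatives moved these counts by at most 1.5 times. Shares of all protein-coding genes are given only for the main windows and for the peaks of largest −log10 q-value. A changed window or list can also move the share of all genes, so the other gene counts here have no such reference. No paired analysis was possible because the samples form 1 group. The lists hold no read counts, so depth sets a limit that cannot be given.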
